A study of Mus musculus with 5 samples.

Results

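The genes described are 32 genes of synaptic vesicles and of the photoreceptor and bipolar cell ribbon synapse, out of 18193 genes named on the array. They were chosen by name and role, with earlier results of these data known, and the rule itself used no measured difference. Every probe set annotated with exactly 1 gene symbol among the 32 was taken, 80 probe sets in all, and the probe set of highest mean stood for its gene. All 32 genes were on the array and all 32 passed the filter on dim genes, which kept the upper 60% of genes by mean level over all 5 arrays. Total retinal RNA had been measured on whole-genome Affymetrix mouse arrays. Diabetic replicates 1 and 2 each pooled 4 retinas of 2 mice that had been diabetic for 5 weeks after streptozotocin, a toxin of the pancreatic beta cell. Diabetic replicate 3 pooled 6 retinas of 3 mice with experimentally induced diabetes of 3 to 4 weeks. Control replicates 1 and 2 each pooled 4 retinas of 2 age-matched mice that were untreated and had normal glucose. The sources used here give neither strain nor sex, nor an age in numbers.

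Most chemical synapses release transmitter when SNARE proteins of the vesicle and of the plasma membrane zip together, under control of synaptotagmin, complexin and the proteins of the active zone. Photoreceptors and bipolar cells instead release continuously, from terminals in which a ribbon built of RIBEYE holds vesicles beside L-type calcium channels. These terminals use complexins 3 and 4 and syntaxin 3, whereas the conventional synapses of amacrine cells use complexins 1 and 2, syntaxin 1 and synapsins. Many fusion proteins, vesicle membrane proteins and large scaffold proteins are shared by both kinds of terminal.

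RefSeq start windows (GRCm38.p6) were found for 25 of the 32 genes, 34 windows in all, and the 250 bases before the start are printed for 5 genes. Ctbp2 is shown because RIBEYE and the transcriptional co-repressor CtBP2 come from different starts of this gene, and RefSeq gave it 2 windows on chromosome 7. Cplx3 and Cplx1 are shown as a ribbon and a conventional complexin. Syn1 and Napa are shown as the genes with the largest positive difference and the smallest p-value among the 32. Capitals mark 4 motifs searched on both strands: TAATCC, a core letter run bound by CRX and OTX2, TGACGTCA, the cyclic AMP response element, TTCAGCACC, a part of the REST site, and CACGTG, an E-box. No 2 of these matches overlapped in the printed windows.
Ctbp2, chr7:133015248-133015497, minus strand: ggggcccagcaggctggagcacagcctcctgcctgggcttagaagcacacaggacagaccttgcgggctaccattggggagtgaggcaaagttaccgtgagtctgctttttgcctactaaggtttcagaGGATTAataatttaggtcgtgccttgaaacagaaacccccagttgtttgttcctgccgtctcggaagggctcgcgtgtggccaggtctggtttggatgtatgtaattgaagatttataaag
Ctbp2, chr7:133081861-133082110, minus strand: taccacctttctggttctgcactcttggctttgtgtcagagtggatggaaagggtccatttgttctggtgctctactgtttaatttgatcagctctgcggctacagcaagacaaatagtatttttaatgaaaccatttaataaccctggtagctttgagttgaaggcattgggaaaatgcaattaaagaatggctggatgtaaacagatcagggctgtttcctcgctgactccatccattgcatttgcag
Cplx3, chr9:57606282-57606531, minus strand: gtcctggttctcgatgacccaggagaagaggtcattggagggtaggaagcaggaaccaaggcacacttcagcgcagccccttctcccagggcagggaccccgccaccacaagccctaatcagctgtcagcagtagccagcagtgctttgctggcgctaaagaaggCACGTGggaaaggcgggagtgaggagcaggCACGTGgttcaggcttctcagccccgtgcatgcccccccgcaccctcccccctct
Cplx1, chr5:108550028-108550277, minus strand: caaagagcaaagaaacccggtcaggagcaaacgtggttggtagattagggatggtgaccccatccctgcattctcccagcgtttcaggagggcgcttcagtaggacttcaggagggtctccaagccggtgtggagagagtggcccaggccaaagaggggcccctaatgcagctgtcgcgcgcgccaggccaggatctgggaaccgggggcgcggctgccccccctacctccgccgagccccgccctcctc
Syn1, chrX:20920919-20921168, minus strand: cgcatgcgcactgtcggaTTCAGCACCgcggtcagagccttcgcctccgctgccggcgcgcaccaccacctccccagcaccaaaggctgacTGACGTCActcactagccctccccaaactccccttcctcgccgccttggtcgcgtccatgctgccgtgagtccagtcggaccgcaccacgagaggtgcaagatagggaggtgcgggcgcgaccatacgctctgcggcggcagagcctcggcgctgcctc
Napa, chr7:16098330-16098579, plus strand: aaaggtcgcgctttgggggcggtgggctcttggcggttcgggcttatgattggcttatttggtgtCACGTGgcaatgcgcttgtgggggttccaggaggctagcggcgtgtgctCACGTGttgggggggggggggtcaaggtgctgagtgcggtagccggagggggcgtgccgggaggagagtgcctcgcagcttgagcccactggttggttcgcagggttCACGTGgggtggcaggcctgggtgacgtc

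The downstream Ctbp2 window held TAATCC from base 121 before the start, and the other window held none of the 4 motifs. TAATCC stood in 2 of the 5 ribbon genes with a window, Ctbp2 and Unc119, and in 0 of 5 conventional genes. It also stood before the vesicle genes Sv2b and Syp, and so in 4 of the 25 genes. By window it stood in 5 of the 34, or 14.7%, against 6.25% of all 32851 windows. Windows of the same gene were counted separately and are not independent. Syn1 was the only gene of the 25 with TGACGTCA or TTCAGCACC, which stood in 1.55% and 0.301% of all windows. CACGTG was found 3 times before Napa and 2 times before Cplx3, and also before Nsf and Sv2b, against 6.02% of all windows with at least 1 match. These matches are descriptions of letters and not of bound sites.

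The arrays carried the transcripts of retinal neurons. Of the marker lists, 12 of 12 measured rod genes, 7 of 8 cone genes, 8 of 8 bipolar genes, 9 of 11 amacrine and horizontal cell genes, 8 of 8 ganglion cell genes and 8 of 8 Muller glia genes passed the filter on dim genes. Skeletal muscle markers had summed signals of 98808 in diabetic replicate 3 and 63158 in control replicate 2, against 5742 to 6630 in the other 3 arrays, and 7 of 14 measured were tested. Pigment epithelium markers summed to between 53526 and 80029 in the diabetic pools and to 99279 and 145562 in the controls. All 7 tested of these were lower in diabetic pools on average, 6 of them at an unadjusted limma p under 0.05. Of all tested genes, 1.59% were lower at that threshold. None of the 7 passed after adjustment (limma adjusted p = 0.999 for each). The part of adhering muscle or pigment epithelium in the synaptic values was not tested. The ratio of 3' to 5' beta-actin signal, a measure of RNA integrity, was 4.32 in diabetic replicate 2 and 2.01 to 2.71 elsewhere. The same ratio for Gapdh was 0.901 there and 0.784 to 0.838 elsewhere. Because these are whole retinas, fewer cells of a type and less RNA per cell cannot be told apart.

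None of the 32 synaptic genes passed the test between diabetic and control pools. At an adjusted p of 0.05 limma called 0 of the 32, and 0% of the 10916 genes tested (adjusted p = 0.999 for each of the 32). At an unadjusted p under 0.05 there were 0 of 32, while 3.39% of all tested genes passed, 1.8% higher and 1.59% lower in diabetic pools. The groups did not overlap in 3 of the 32, or 9.38%, against 18.1% of all tested genes. Of these 3, Napa and Sv2b were higher in diabetic pools, where 9.99% of all genes were, and Syngr3 was lower, where 8.15% of all genes were. On the log2(signal + 120.6) scale, 21 genes, or 65.6%, had a higher and 11 a lower mean in diabetic pools, where 51.9% of all tested genes had a higher mean. Among 124 further genes of vesicle release and recycling the share with a higher mean was 65.3%, so it is not particular to the 32. The median difference of the 32 was 0.03, beside 0.00602 over all genes tested. In 19 of the 32 the sign turned in at least 1 of the fits that leave out 1 array. The number with a higher mean was 17 without diabetic replicate 2, 15 without control replicate 2, and 15 when all probe sets of a gene were averaged. The median absolute difference was 0.06 for the 32 and 0.08 for all tested genes.

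The 95% intervals set limits on what could have been missed in the probe set of highest mean of each gene. In 31 of the 32 genes the interval lay between -0.5 and 0.5 log2 units, that is between 29.3% lower and 41.4% higher. In 13 of them it lay between -0.25 and 0.25, or 15.9% lower to 18.9% higher. Stx3 was the exception to the wider bound, with an interval of -0.80 to 0.06. Intervals are not adjusted for the number of genes, and standard errors of the 32 differences ran from 0.06 to 0.19. The intervals also leave out disagreement between probe sets of a gene. For Syngr1 the interval was -0.07 to 0.41, whereas the average of its probe sets differed by -0.16.

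**Figure D1:**
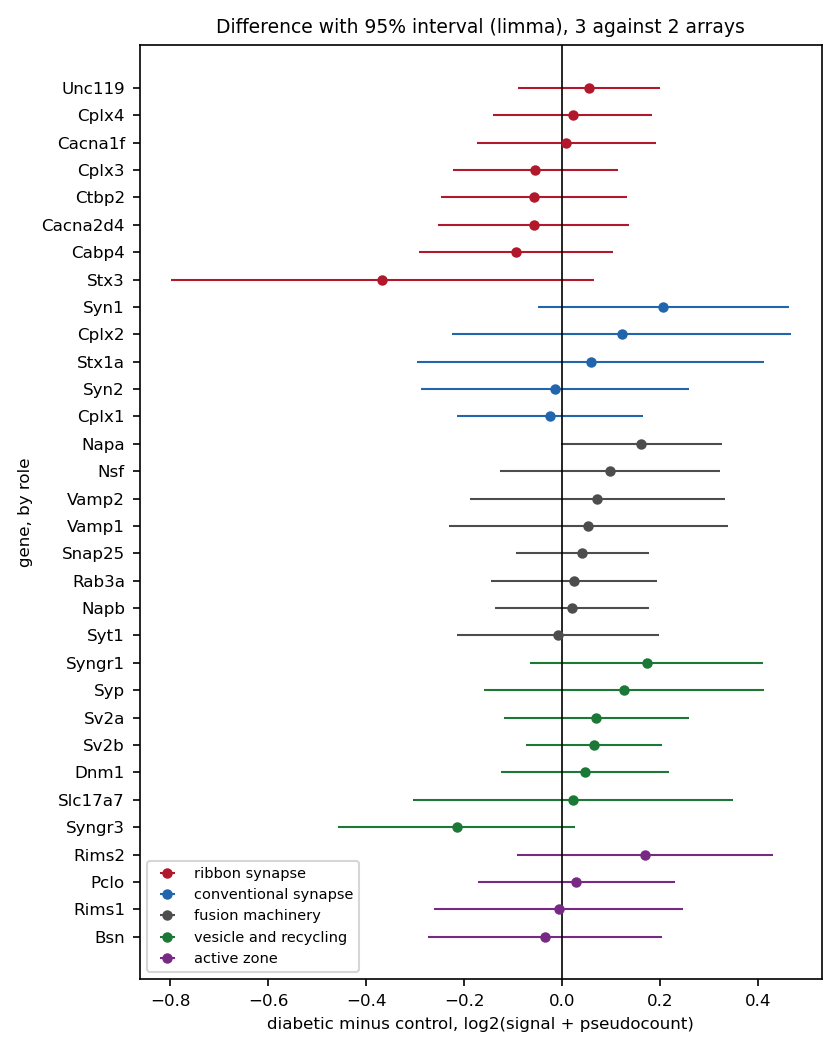
Difference of diabetic minus control pools for the 32 synaptic genes on the log2(signal + 120.6) scale (x axis), by role (y axis, colours). Points are differences and bars 95% limma intervals from 3 against 2 arrays. Every interval includes 0, and that of Stx3 is the widest, at -0.80 to 0.06.

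Of the 8 ribbon genes, 3 had a higher and 5 a lower mean in diabetic pools, with a median difference of -0.06, and groups overlapped in all 8. Cplx3 encodes a complexin of ribbon terminals. Its signal was 25333, 27935 and 26320 in diabetic replicates 1 to 3 and 27368 and 27706 in control replicates 1 and 2. The control values lay inside the diabetic range, and the difference was -0.05 (SE 0.07). Cplx4, the other ribbon complexin, had 43477, 42085 and 41583 in diabetic pools and 43883 and 39732 in controls. Here the diabetic values lay inside the control range, with a difference of 0.02 (SE 0.07). Both genes were measured by 1 probe set each.

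Stx3, the syntaxin of the ribbon terminal, showed the largest difference of the 32 genes. Its probe set of highest mean read 46245, 32835 and 56409 in diabetic replicates 1 to 3, against 53624 and 60372 in controls. Diabetic replicate 2 was the lowest, and replicates 1 and 3 lay on either side of control replicate 1, so the groups overlapped. On the log2 scale diabetic pools averaged 15.43 ± 0.39 (SD, n = 3) and controls 15.80 ± 0.12 (SD, n = 2), which differ by -0.37 (SE 0.19, limma unadjusted p = 0.0859, adjusted p = 0.999). Without diabetic replicate 2, the array of high beta-actin ratio, the difference was -0.155, and leaving out diabetic replicate 3 gave -0.545. A further Stx3 probe set had 22018, 20319 and 22994 in diabetic pools and 20320 and 21308 in controls, a difference of 0.06. Another differed by 0.11, with 7055, 3216 and 4935 in diabetic and 5673 and 3483 in control pools. The 3 probe sets of Stx3 above the dim limit thus differed in direction.

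Ctbp2 encodes RIBEYE, the main protein of the ribbon, and CtBP2. Neither of its probe sets is annotated to 1 of these products, so the signal is that of the gene. The probe set of highest mean had 40657, 47397 and 41148 in diabetic pools and 45345 and 44125 in controls, a difference of -0.06 (SE 0.08). The other had 20985, 22503 and 20534 in diabetic pools and 19312 and 20580 in controls, which overlapped in the opposite direction. Averaging the probe sets gave 0.02.

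The calcium channel of the ribbon terminal has the pore subunit Cacna1f, the accessory subunit Cacna2d4 and the modulator Cabp4. Cacna1f had 19397, 18887 and 17775 in diabetic and 19263 and 17893 in control pools, a difference of 0.00834 (SE 0.08). Cacna2d4 had 24216, 28394 and 25400 in diabetic and 26538 and 27504 in control pools, a difference of -0.06 (SE 0.09). For Cabp4 the signals were 23362, 27750 and 25882 in diabetic pools and 27332 and 27334 in controls, a difference of -0.09 (SE 0.09). In Cabp4 the controls were almost equal and 2 of 3 diabetic pools lay below them, with replicate 2 above. A dimmer Cabp4 probe set differed by -0.14, with 15183, 11826 and 13890 in diabetic and 15160 and 14755 in control pools. Unc119, a lipid-binding chaperone abundant in photoreceptors, had 94944, 89996 and 92513 in diabetic and 92633 and 85543 in control pools, and differed by 0.05 (SE 0.06).

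Of the 5 conventional synapse genes, 3 had a higher and 2 a lower mean in diabetic pools, with a median difference of 0.06 and groups that overlapped in all 5. Syn1 encodes synapsin 1, which tethers vesicles in the reserve pool. It had 10683, 11560 and 9145 in diabetic replicates 1 to 3 and 9318 and 8713 in control replicates 1 and 2. Diabetic replicates 1 and 2 lay above both controls and replicate 3 between them. The difference of 0.21 (SE 0.11, limma unadjusted p = 0.0997, adjusted p = 0.999) was the largest positive difference of the 32 genes, and it was 0.13 without diabetic replicate 2. Syn2, a second synapsin, had 2695, 2393 and 2643 in diabetic and 2691 and 2516 in control pools and differed by -0.02 (SE 0.12).

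Cplx1, a complexin of conventional terminals, had 14251, 15928 and 14427 in diabetic and 15146 and 15098 in control pools, and its difference was -0.03 (SE 0.08). Cplx2, its close relative, had 7595, 8248 and 6506 in diabetic pools and 7971 and 5812 in controls. Control replicate 2 was the lowest array and control replicate 1 lay inside the diabetic range. The difference of 0.12 (SE 0.15) became -0.103 when control replicate 2 was left out, and 0.345 when control replicate 1 was. Stx1a, the plasma membrane syntaxin of conventional synapses, had 2374, 2175 and 2712 in diabetic and 2629 and 2030 in control pools. Its difference of 0.06 (SE 0.15) became -0.119 when control replicate 2 was left out, 0.235 when control replicate 1 was, and -0.20 when both arrays of high muscle signal were. A dimmer Stx1a probe set differed by -0.26, with 931, 918 and 690 in diabetic and 1139 and 926 in control pools, which overlapped. Averaging the Stx1a probe sets gave -0.10.

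Within each array, the log2 ratio of a ribbon to a conventional isoform removes any shift that the array gives to both genes. Only the difference of such a ratio between groups can be read, because the probe sets differ in brightness for the same amount of RNA. Over 5 pairs no difference passed an exact two-sided permutation test, and with 10 regroupings of 5 arrays p cannot be below 0.2. Cplx3 over Cplx1 was the tightest ratio, at 0.82, 0.81 and 0.86 in diabetic pools and 0.85 and 0.87 in controls. It differed by -0.03 (exact p = 0.4, adjusted p = 0.667 over the 5 pairs). The highest value was that of control replicate 2 and the lowest that of diabetic replicate 2. Cplx3 over Cplx2 was at 1.72, 1.75 and 2.00 in diabetic and 1.76 and 2.23 in control pools, a difference of -0.18 (exact p = 0.4). Leaving out control replicate 1 gave -0.408, and leaving out control replicate 2 gave 0.06. Cplx4 over Cplx1 differed by 0.05 (exact p = 0.8) and Cplx4 over Cplx2 by -0.10 (exact p = 0.6). Stx3 over Stx1a was at 4.22, 3.84 and 4.32 in diabetic pools and 4.29 and 4.81 in controls, a difference of -0.43 (exact p = 0.4). Diabetic replicate 2 was the lowest and control replicate 2 the highest of the 5 arrays in that ratio. It differed by -0.163 with control replicate 2 left out, by -0.284 with diabetic replicate 2 left out and by -0.688 with control replicate 1 left out.

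**Figure D2:**
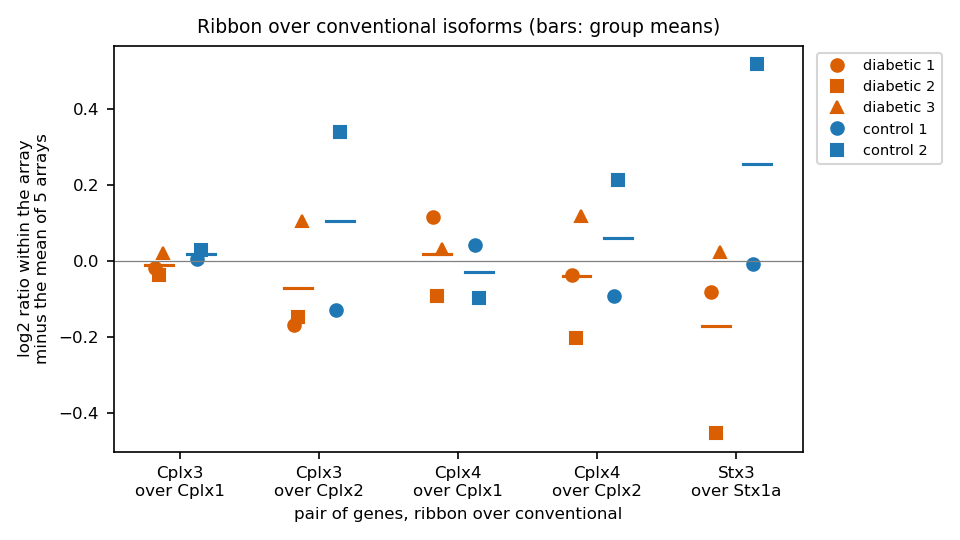
Log2 ratio of a ribbon gene over a conventional gene within each array, minus the mean of the 5 arrays (y axis), for 5 pairs (x axis). Orange symbols are diabetic and blue symbols control pools, and bars are group means. Groups overlap in every pair, and Stx3 over Stx1a has the widest spread.

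Of the 8 genes of the fusion machinery, 7 had a higher and 1 a lower mean in diabetic pools, where 51.9% of all tested genes had a higher one, with a median difference of 0.05. Control replicate 2 was the lowest array for 6 of the 8. Napa encodes alpha-SNAP, the adaptor through which the ATPase NSF takes spent SNARE complexes apart. Its signal was 19315, 19935 and 19253 in diabetic replicates 1 to 3, against 17567 and 17294 in control replicates 1 and 2. All 3 diabetic pools lay above both controls. Diabetic pools averaged 14.26 ± 0.03 (SD, n = 3) and controls 14.10 ± 0.02 (SD, n = 2) on the log2 scale, for a difference of 0.16 (SE 0.07), or 11.8%. That was the smallest p of the 32 genes (limma unadjusted p = 0.0538, adjusted p = 0.999). The other Napa probe set had 3183, 3618 and 3433 in diabetic pools and 2980 and 2877 in controls, a difference of 0.21, again without overlap. With single arrays left out the Napa difference lay between 0.145 and 0.172.

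Napb encodes beta-SNAP, the neuronal relative of alpha-SNAP, and its probe sets differed among themselves. The probe set of highest mean had 26457, 25876 and 25348 in diabetic and 25804 and 25249 in control pools, a difference of 0.02 (SE 0.07). A dimmer set had 12940, 13921 and 13467 in diabetic pools and 11778 and 11719 in controls, a difference of 0.19 without overlap. The dimmest of the 5 above the limit had 1824, 462 and 1889 in diabetic and 2352 and 1302 in control pools, with diabetic replicate 2 far below the others. Nsf, the ATPase itself, had 50047, 51223 and 50151 in diabetic pools and 53175 and 41807 in controls. The diabetic values lay close together between the controls, and the difference of 0.10 (SE 0.10) became -0.08 when control replicate 2 was left out and 0.27 when control replicate 1 was.

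Snap25, a SNARE of the plasma membrane, had signals of 89342 to 92828 in diabetic and 85996 and 90090 in control pools, and differed by 0.04 (SE 0.06). Vamp2, the main vesicle SNARE, had 37042, 46713 and 35758 in diabetic and 36338 and 38962 in control pools, a difference of 0.07 (SE 0.11) that was -0.05 without diabetic replicate 2. Vamp1, a second vesicle SNARE, differed by 0.05 (SE 0.12), with 4310 to 5529 in diabetic and 4809 and 4868 in control pools. Syt1, the calcium sensor of fast release, differed by -0.00961 (SE 0.09), with 66600 to 72580 in diabetic pools inside the control values of 77203 and 63284. Rab3a, a small GTPase of vesicles, had 20894 to 22410 in diabetic and 21609 and 20703 in control pools and differed by 0.02 (SE 0.07). The groups overlapped in each of these 5 genes.

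Of the 7 genes of the vesicle membrane and its recycling, 6 had a higher and 1 a lower mean in diabetic pools, beside the same 51.9% of all tested genes. Their median difference was 0.06, and diabetic replicate 2 was the highest array for 6 of the 7. Syngr3, a tetraspan protein of vesicles, had 3056, 3004 and 2919 in diabetic replicates 1 to 3, against 3440 and 3549 in control replicates 1 and 2. All 3 diabetic pools lay below both controls. Diabetic pools averaged 11.60 ± 0.03 (SD, n = 3) and controls 11.82 ± 0.03 (SD, n = 2) on the log2 scale, for a difference of -0.22 (SE 0.11, limma unadjusted p = 0.0738, adjusted p = 0.999). Its dimmer probe set had 1151, 1012 and 1075 in diabetic and 1003 and 1248 in control pools, which overlapped. Syngr1, from the same family, had 21109, 25023 and 20877 in diabetic pools and 21128 and 18441 in controls, a difference of 0.17 (SE 0.10). It was 0.0748 with control replicate 2 left out and 0.27 with control replicate 1 left out. The sign of Syngr1 turned to -0.16 when all its probe sets were averaged. A dimmer one had 1770, 666 and 1639 in diabetic and 1571 and 1892 in control pools. The average also took in a probe set below the dim limit, with 43, 25 and 192 in diabetic and 71 and 159 in control pools.

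Sv2b, a vesicle glycoprotein, had the narrowest spread of this group, at 53531, 53901 and 53312 in diabetic pools and 50816 and 51636 in controls. The groups did not overlap, although the difference was 0.06 (SE 0.06, limma unadjusted p = 0.314, adjusted p = 0.999), or 4.59%. A dimmer Sv2b probe set had 11504, 8069 and 9427 in diabetic and 9577 and 7603 in control pools, which overlapped. Sv2a, its paralog, had 17424 to 18607 in diabetic and 16137 and 18068 in control pools and differed by 0.07 (SE 0.08). Syp encodes synaptophysin, an abundant vesicle membrane protein. It had 34786, 47853 and 37047 in diabetic pools and 35837 and 36599 in controls. Diabetic replicate 2 alone stood high, and the difference of 0.13 (SE 0.13) was -0.01 without it. Slc17a7, which loads vesicles with glutamate, had 25023, 27267 and 20067 in diabetic and 26496 and 20932 in control pools and differed by 0.02 (SE 0.14). That value became -0.147 when control replicate 2 was left out and 0.192 when control replicate 1 was. Diabetic replicate 3 and control replicate 2, the arrays of high skeletal muscle signal, were the lowest for Slc17a7, and the part of the muscle signal in this was not tested. Dnm1, the GTPase that pinches vesicles off the membrane, had 47202 to 54072 in diabetic and 48789 and 48422 in control pools and differed by 0.05 (SE 0.08).

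Of the 4 active zone scaffold genes, 2 had a higher and 2 a lower mean in diabetic pools, with overlap in all 4. Rims2, which links calcium channels to vesicles, had 28725, 37943 and 35238 in diabetic pools and 29062 and 30999 in controls. Diabetic replicates 2 and 3 were above both controls and replicate 1 below, a difference of 0.17 (SE 0.11, limma unadjusted p = 0.178, adjusted p = 0.999). With diabetic replicate 2 left out it was 0.0837, and with diabetic replicate 1 left out 0.284 (limma adjusted p = 0.92 and 0.999). A dimmer Rims2 probe set had 21865, 20203 and 22351 in diabetic pools and 18672 and 17454 in controls, a difference of 0.25 without overlap. A further Rims2 set had 22580, 19364 and 25037 in diabetic and 21084 and 20987 in control pools, a difference of 0.08 with overlap. Rims1 differed by -0.00722 (SE 0.11), with 14139 to 17167 in diabetic and 14234 and 16994 in control pools. Bsn and Pclo encode the giant scaffold proteins bassoon, which anchors the ribbon, and piccolo. Bsn had 7121 to 8397 in diabetic and 7513 and 7922 in control pools, and differed by -0.03 (SE 0.10). Pclo had 10691 to 11303 in diabetic and 10219 and 11456 in control pools, and differed by 0.03 (SE 0.09).

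**Figure D3:**
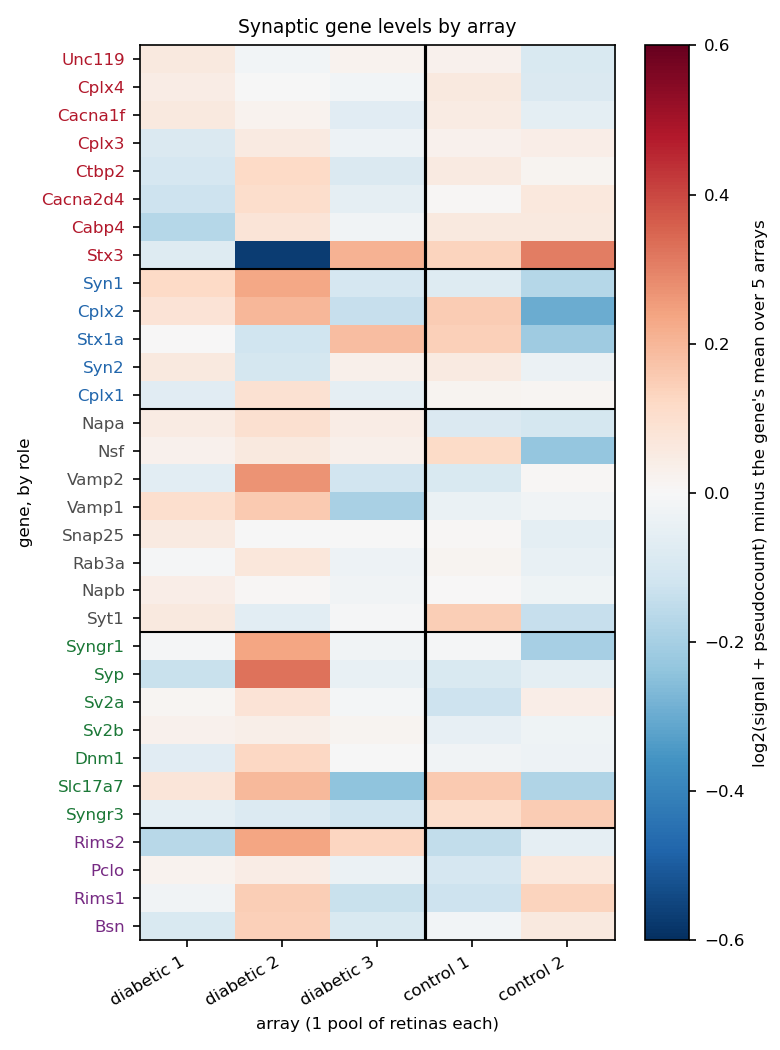
Level of each of the 32 synaptic genes in each array (columns, diabetic pools left of the black line), as log2(signal + 120.6) minus the gene's mean over 5 arrays (colour). Rows are grouped by role, and gene names share a colour within a role. Diabetic replicate 2 has the highest value in 20 of the 32 genes, and Stx3 in that array is the lowest value shown.

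The range over the 5 arrays had a median of 0.23 log2 units for the 32 genes and 0.32 for all tested genes. Medians of the neuron marker lists ran from 0.24 for rods to 0.39 for bipolar cells. The sets compared were not matched for mean level. Among the 32, Napb had the narrowest range, at 0.07, and Stx3 the widest, at 0.88. Diabetic replicate 2 was the highest array for 20 of the 32, or 62.5%, against 32.8% of all tested genes, and the lowest for 2, Stx3 and Syn2. Control replicate 2 was the lowest array for 12, or 37.5%, against 19.2% of all tested genes.

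The dimmer probe sets of the same genes ran the other way in diabetic replicate 2. There were 37 further probe sets of these genes above the dim limit, and diabetic replicate 2 was the lowest array in 19 of them, or 51.4%, against 37.6% of such probe sets of all genes. Its median deviation from the mean of the other 4 arrays was 0.10 log2 units over the 32 probe sets of highest mean and -0.16 over the 37 further ones. The same medians were 0.04 and -0.07 over all genes. Vamp2 showed the contrast, with the highest signal of the 5 arrays, 46713, in its brighter probe set, and the lowest, 2583 against 4180 to 5480, in its dimmer one. In Syngr1 the brighter set deviated by 0.30 and the dimmer by -1.22. Of the 23 genes with several probe sets above the limit, the further sets lay on average below the brightest in 18 for this measure. In 15 of the 23 genes the probe sets also had group differences of both signs. Neither count was made over all genes with several probe sets, so neither can be called particular to the 32.

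The 3' to 5' ratios of beta-actin and Gapdh were both highest in diabetic replicate 2, Gapdh by less, and their part in the contrast was not tested. The marker lists of 3 neuron classes also had their highest sums there. Amacrine and horizontal cell markers summed to 191517 in diabetic replicate 2 and 166709 to 172987 in the other arrays. Bipolar markers summed to 194757 there and 170936 to 188449 elsewhere, and ganglion cell markers to 108944 there and 93679 to 101824 elsewhere. Single genes did not all follow these sums. Thy1, a ganglion cell marker, had 16709 there and 9627 to 11897 elsewhere. Nefl, Slc17a6, Sncg and Stmn2 of the same list were instead highest in diabetic replicate 1. So were Calb2, Gad2 and Pax6 of the amacrine and horizontal cell list. Of the bipolar genes, Otx2 and Vsx1 were lowest in diabetic replicate 2. Muller glia markers summed to 250289 there, second to control replicate 1, at 251478. Melanocyte markers were lowest there, at 2672, against 4684 to 22144 in the other arrays. Rod markers summed to 941627, within the range of the other arrays of 925196 to 1049983. None of the markers measured was listed at 0. The part of cell makeup in the pattern was not tested.

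**Figure D4:**
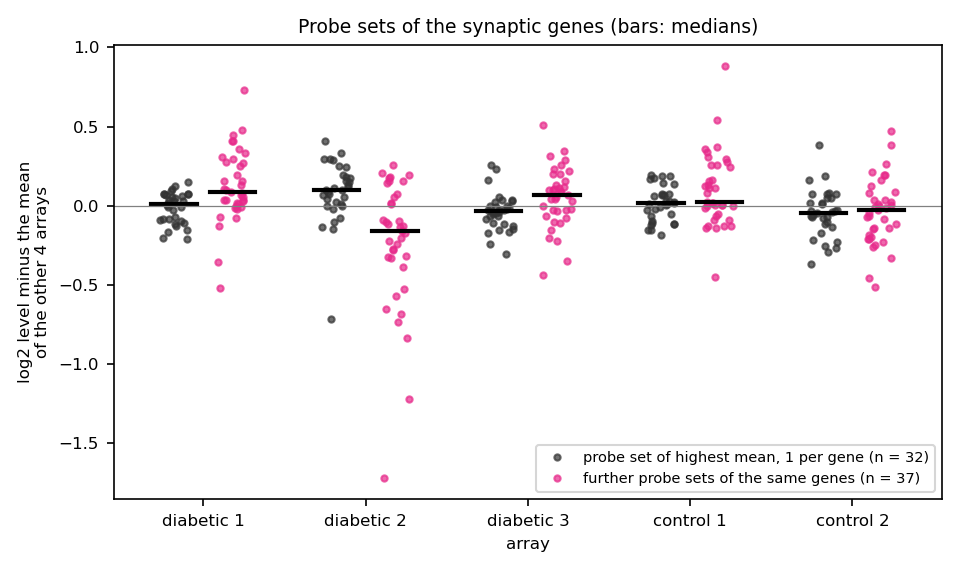
Deviation of each synaptic probe set from the mean of the other 4 arrays in log2 units (y axis), by array (x axis). Grey points are the 32 probe sets of highest mean, pink points the 37 further probe sets of the same genes, and bars medians. In diabetic replicate 2 the medians are 0.10 and -0.16, farther apart than in any other array.

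Counted by probe set, the groups did not overlap in 6 of the 69 synaptic probe sets above the dim limit, or 8.7%, against 17.2% of all 18753 such probe sets. Of these 6, 5 were higher in diabetic pools, namely both of Napa and 1 each of Napb, Rims2 and Sv2b, and 1 was lower, that of Syngr3. Over all such probe sets 8.77% were higher and 8.41% lower without overlap. Of the genes with more than 1 probe set above the limit, Napa was the only member in which every probe set separated the groups. The share of all genes for which this holds was not counted. Both Napa sets were read on the same pools, so they are not independent.

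The 32 genes lie on many chromosomes, and 3 of them on the X chromosome (Cacna1f, Syp and Syn1). Cacna1f and Syp are neighbours there, with 3383 bases between the gene models of GRCm38.p6. Cacna1f differed by 0.00834 and Syp by 0.13 between the groups.

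Further genes of vesicle release and recycling, were counted from lists of 144 names. Of the 124 tested, limma called 0 at an adjusted p of 0.05. At an unadjusted p under 0.05 there were 5, or 4.03%, against 3.39% of all tested genes. The groups did not overlap in 22, or 17.7%, against 18.1%, and the median difference was 0.04. A higher mean in diabetic pools was found in 81, or 65.3%, beside 65.6% of the 32 and 51.9% of all tested genes. Of 41 fusion genes 1 passed the unadjusted threshold, and of 19 further vesicle protein, transporter and proton pump genes 0 did. Of 34 active zone and calcium channel genes 3 passed, and of 30 endocytosis genes 1 did.

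Rab27b, a small GTPase of secretory vesicles, had 2863, 3291 and 2733 in diabetic and 2255 and 2369 in control pools, a difference of 0.34 (SE 0.13, limma unadjusted p = 0.0267, adjusted p = 0.999). Unc13b, a Munc13 priming protein, had 40474, 39839 and 38722 in diabetic and 37765 and 34330 in control pools, a difference of 0.14 (SE 0.07). Rims4, a short RIM, had 977, 1178 and 1381 in diabetic and 845 and 802 in control pools, a difference of 0.45 (SE 0.19). All 3 diabetic pools lay above both controls for each of these 3 genes. Cacna2d3, an accessory calcium channel subunit, had 17252, 16216 and 16737 in diabetic and 18387 and 19794 in control pools, a difference of -0.19 (SE 0.08). Cltb, a clathrin light chain, had 6578, 7702 and 6996 in diabetic and 8737 and 8209 in control pools, a difference of -0.25 (SE 0.10). In both of these every diabetic pool was lower than both controls. The genes of this paragraph were named for the smallest p of their lists, which favours groups that do not overlap. Of all tested genes, 9.99% were higher and 8.15% lower without overlap. Eps15, an endocytic adaptor, differed by 0.15 (SE 0.09), and the proton pump subunits Atp6v1b2 and Atp6v0a1 by 0.16 (SE 0.09) and 0.14 (SE 0.09). None passed the adjusted threshold (limma adjusted p = 0.999 for each).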

How the data were processed

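Retinal RNA of 3 diabetic and 2 control pools was measured on 5 arrays, and groups and replicate numbers came from the labels. The deposited values are signal intensities on a linear scale, 1 per probe set. With 2% trimmed from either end, every array averaged 2500, so the authors' values appear scaled to a common mean. The sources used here name neither summarization software nor background correction, which leaves the error of dim signals unknown.

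Symbols were updated by Entrez ID (34741 of 34945 probe sets with 1 symbol) through a gene table of GRCm38.p6. Of the 45101 probe sets, 64 were controls and 932 had several symbols. Signals were taken as log2(signal + 120.6), the pseudocount being the 20th percentile of all values, which understates changes of dim genes. Of 18193 genes, the 10916 of highest mean were tested with limma 3.58.1 (eBayes with a trend, R 4.3.3), with Benjamini-Hochberg adjustment over all of them at 0.05. Dim probe sets were those below a mean of 9.70. Each array is a pool, so p-values compare pools. The number of arrays limits the precision.

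Named were all 32 members. Values in every array were due for the 10 of smallest unadjusted p, those whose groups did not overlap, and the complexins and syntaxins. Of each further list the 2 genes of smallest p were named. Members, lists and rules were chosen with earlier results of these data known. The other probe sets, Cacna1f, Cacna2d4, Ctbp2, Unc119, Vamp2, Slc17a7 and Syn2 were given in full after their values were seen. List genes without a probe set of their own here were not analysed here. Only the limma fit was tested on simulated data, with changes far larger than any difference seen in the 32 genes. The other steps were not tested in this way. Plots were made with matplotlib 3.10.9.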

Additional observations from a re-analysis of the deposited data

How the results depend on the processing

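There were 16 alternatives: 2 other scalings, 2 pseudocounts, 2 filters, averaged probe sets, 2 variance models, a replicate block, 5 fits that each leave out 1 array, and, chosen after seeing the data, 1 that omits both arrays with much skeletal muscle signal. None of the 32 synaptic genes passed under any (lowest limma adjusted p = 0.852), and at most 2 had an unadjusted p under 0.05 in any 1 of them. Over all genes the count called was 0, and with single arrays left out 0 to 1, with 1 called when diabetic replicate 2 or diabetic replicate 3 was omitted. Omitting both muscle arrays gave 2. The cause was not tested.

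The labels do not say that replicate numbers mark a shared litter or day. Deviations of same-numbered pools from their group mean correlated at 0.131 and -0.141. With 2 controls, the deviations of 1 are those of the other with the sign reversed. The 2 values are thus not separate checks, and they cannot show whether pools were paired. With a replicate block 2 genes were called, neither of them synaptic, and the median difference of the 32 was 0.05. Diabetic replicate 3 has no control of its number and adds nothing to that fit.

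The median difference of the 32 lay between -0.00439 and 0.05 with single arrays left out, that of the ribbon genes between -0.11 and -0.02, and that of the conventional genes between -0.06 and 0.235. Averaging probe sets gave a median of -0.0086 for the 32 and moved Cplx3 over Cplx1 to 0.00752 and Stx3 over Stx1a to -0.00852. The averages took in probe sets below the dim limit. That of Syp, at -0.05, took its sign from such a probe set. Of 510 gene values under alternatives, 9 moved by a replicate SD or more. That count does not measure stability, because many of the values could not move so far. Leaving out a single pool shifts a group mean by less than the SD of that group. The filters and the variance model without a trend leave each difference as it is. In 9 of the 32 genes the sign was the same under every alternative run. These were Cabp4, Cacna2d4, Cplx3, Napa, Rims2, Stx3, Sv2b, Syn1 and Syngr3. The share of all genes for which this holds was not counted. A kept sign does not mean that the probe sets of a gene had the same direction, since those of Stx3 above the dim limit did not. Centring on array medians moved the median of all genes to 0.03.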
